A study of Mus musculus with 6 samples.

Results

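Described here are 32 genes of the lysosome: 8 hydrolases, 8 cathepsins, 6 membrane proteins, 3 lumenal cofactors, 6 subunits of the vacuolar proton pump (v-ATPase) and the transcription factor Tfeb. They were picked by name from the deposited gene count table. No value enters that rule, although the names were listed with earlier results of these data known. All 32 were among its 18478 genes, and all 32 were among the 14084 genes that had enough counts to be tested. The RNA came from group 2 innate lymphoid cells (ILC2s), lymphocytes of barrier tissues that lack antigen receptors and release type 2 cytokines, sorted from the lungs of 6-week-old BALB/c mice. One group was wild type (WT, 3 libraries) and the other was labelled CB2 KO, for the cannabinoid receptor 2 encoded by Cnr2 (3 libraries). Mice of both groups had been given recombinant IL-33, the alarmin that activates ILC2s, into the nose in 3 doses of 1 µg, and all cells were then cultured for 24 h in IL-2 plus IL-7 (10 ng/mL of each). The labels give neither the knockout allele nor whether cells of several mice were pooled, and no group without IL-33 was analysed here.

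Lysosomes are acidic organelles in which proteins, lipids, glycans and nucleic acids are broken down. The v-ATPase pumps protons into the lumen, hydrolases and cathepsins work at the resulting low pH, and heavily glycosylated membrane proteins line the organelle. TFEB and its relatives bind E-box sequences in promoters of many lysosomal genes and raise their transcription together, and in lymphocytes the same organelles also serve nutrient sensing, autophagy and the turnover of surface receptors.

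Promoter sequences show where such E-boxes lie in these genes. In the RefSeq promoter table (mouse build GRCm38.p6), which gives 250 bases before and 50 bases after a start site, 26 of the 32 genes had an entry. The E-box core CACGTG was found in 10 of the 26 (38.5%), against 8.09% of all 27025 genes in that table and 12.1% of the tested genes with an entry. The longer form TCACGTGA, which contains the core, was found in 6 of the 26 (23.1%), against 1.12% of all genes and 2.31% of the tested genes. The full element, TCACGTGA with a G before it and a C after it, was in none of the 26 and in 0.37% of all genes. All of these are palindromes, so a match reads alike on both strands. A match describes letters in this window only, and binding was not measured. Lamp1 is shown first because it held the most cores, 4 within the last 61 bases before its start site. It is given with its chromosome position, 5′ to 3′ on the + strand, with each CACGTG in capitals.
Lamp1, chr8:13158911-13159160, + strand: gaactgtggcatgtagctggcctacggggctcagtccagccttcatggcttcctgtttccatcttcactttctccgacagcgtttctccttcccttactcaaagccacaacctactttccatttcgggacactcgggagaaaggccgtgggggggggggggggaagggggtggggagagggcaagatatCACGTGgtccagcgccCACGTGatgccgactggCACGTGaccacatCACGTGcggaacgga
The next 6 are the genes that held TCACGTGA, shown as 30 bases around it on the strand of the gene, 5′ to 3′, again with the core in capitals, so that the T before and the A after the core can be read.
Ctsd, chr7:142387908-142387937, - strand: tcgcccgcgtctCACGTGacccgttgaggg
Ctsa, chr2:164833749-164833778, + strand: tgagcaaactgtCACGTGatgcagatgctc
Mcoln1, chr8:3500462-3500491, + strand: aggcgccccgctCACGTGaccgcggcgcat
Atp6v0d1, chr8:105566050-105566079, - strand: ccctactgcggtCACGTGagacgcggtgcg
Atp6v1a, chr16:44139373-44139402, - strand: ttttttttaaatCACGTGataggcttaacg
Atp6v0e, chr17:26676387-26676416, + strand: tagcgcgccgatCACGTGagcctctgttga
By role, TCACGTGA was in 3 of 4 v-ATPase subunits with an entry, 2 of 6 cathepsins, 1 of 5 membrane proteins and none of 7 hydrolases, 3 lumenal cofactors or Tfeb itself. The core alone was also found in the hydrolases Glb1 and Gaa and the cathepsin Ctsl. Of 112 other lysosomal genes with an entry, 26 (23.2%) held the core and 11 (9.82%) held TCACGTGA. Among these were 15 other v-ATPase subunits and accessory proteins, of which 1 (6.67%) held the core and 0 held TCACGTGA. Of 9 dendritic cell markers, 4 (44.4%) held the core and 1 held TCACGTGA. Among other marker lists, the core was in 1 of 4 stromal and epithelial genes and in none of 13 ILC2 or 14 macrophage and monocyte genes.

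**Figure D1:**
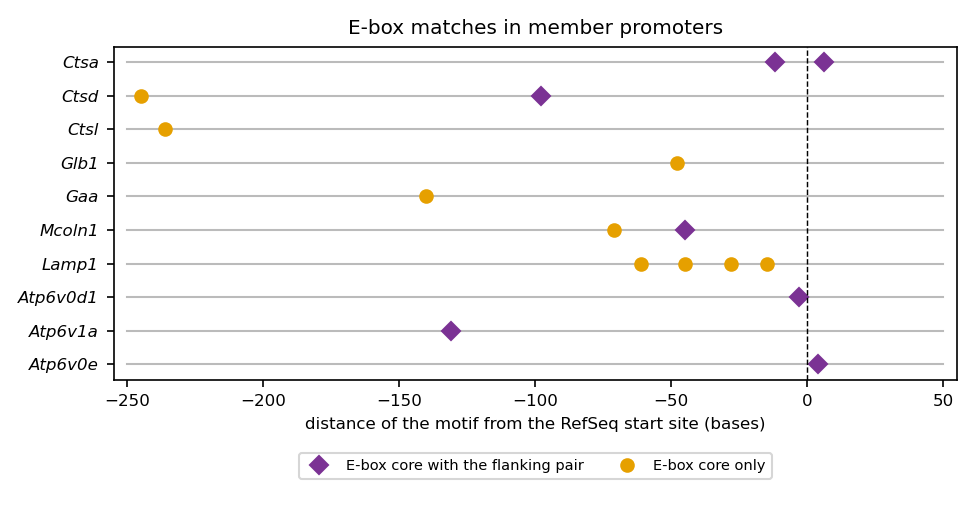
Position of each E-box match in the 10 promoters that held one, as the distance in bases of its first letter from the RefSeq start site (dashed line). Diamonds are TCACGTGA and circles are the core CACGTG alone, and the 4 circles of Lamp1 lie between -61 and -15.

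The libraries held 17141698 to 21621008 estimated counts, and levels are given as CPM, the counts scaled to library size, after TMM scaling, a correction for differences in library composition. Cnr2, the targeted gene, measured 9.32, 17.4 and 15.8 CPM in WT replicates 1 to 3 and 9.24, 1.6 and 3.84 CPM in CB2 KO replicates 1 to 3. The library labelled CB2 KO replicate 1 therefore carried Cnr2 at the level of the lowest WT library, and gene counts do not show which exons the reads cover. Cap1, also on chromosome 4, measured 886 CPM in that library, 805 and 864 CPM in CB2 KO replicates 2 and 3, and 128.5 to 144.5 CPM in WT. Why Cnr2 was at that level in CB2 KO replicate 1 was not tested. The same library stood apart on principal component 1, which held 37.6% of the variance, at 151 against -35.6 to -24.6 for the other 5, and it held the fewest genes with a count, 15005 against 15640 to 16514. Values without it are therefore given beside the results that rest on it. All 16 ILC2 markers in the table had counts in all 6 libraries, from Il5 at 6972 CPM or more down to Thy1 at 15.8 to 24.7 CPM, with Gata3 at 932 to 1095 CPM and Il1rl1, the IL-33 receptor, at 896 to 999.7 CPM. Their log2 differences (CB2 KO minus WT) were negative for 11 of the 16. For 8 of the 16, Gata3 among them, all CB2 KO libraries lay below the WT range, against 7.2% of all tested genes. For 1 they lay above it, against 6.91%. At an unadjusted p under 0.05 in edgeR there were 6 lower and 1 higher of 16, against 4.27% and 4.33% of all tested genes. None passed in edgeR after adjustment (smallest adjusted p of 0.104). DESeq2, which called 2.73% of all genes it tested, called 1 higher and 2 lower. Nmur1, the neuromedin U receptor, had the most negative log2 difference, at -0.67. Macrophages and mast cells are rich in lysosomes, so their markers are given here. Of 21 macrophage and monocyte markers, 11 were in the table and 4 could be tested. These 4 had positive log2 differences, their summed level over all 11 was 4.05 to 50.6 CPM in WT against 147.5 to 165.9 in CB2 KO, and 5 of the 11 were at 0 in every WT library. In every library but WT replicate 1, most of that sum was Chil3, a secreted chitinase-like protein. Chil3 measured 0.559 to 47.5 CPM in WT against 108 to 143 in CB2 KO, while Lyz2, lysozyme, measured 1.12 to 2.55 and 10.4 to 21.2 CPM. None of the 4 passed in edgeR (smallest adjusted p of 0.0693, for Lyz2), and DESeq2 called 2 of the markers higher, Lyz2 and Itgam. Cd14 went the other way, with 2.33 CPM in WT replicate 1 and 0 in all other libraries. Adgre1, Marco, C1qa and Mertk were among the listed markers that were not in the table. The lowest total of a gene in the table was 10 counts over the 6 libraries. The summed level of 13 mast cell and basophil markers was 214 to 268 CPM in WT against 211 to 263 in CB2 KO, most of it Kit, which ILC2s also express and which measured 184 to 217 and 87.2 to 165 CPM. Without Kit, a sum added after seeing the data, it was 30.5 to 51.4 CPM in WT and 63.7 to 124 CPM in CB2 KO, with no overlap. Of the 11 tested, 10 had positive differences and none passed in edgeR, and DESeq2 called Tpsb2, a tryptase, at 1.46 to 3.31 and 15.7 to 32.3 CPM. The part of these cells in the values below was not tested.

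No call was made for any of these lysosomal genes between WT and CB2 KO. With the quasi-likelihood test of edgeR, none of the 32 reached an adjusted p under 0.05, where 15 of all tested genes did (0.107%), and the smallest adjusted p among the 32 was 0.475. None passed in DESeq2, which called 409 genes (2.73%), or in limma-voom, which called 15 (0.107%). At an unadjusted p under 0.05 there were 3 in edgeR: Atp6v1b2 with a positive difference, and Asah1 and Ctsd with negative ones, against 8.6% of all tested genes (4.33% higher in CB2 KO and 4.27% lower) and 11.4% of genes with a mean of at least 50 CPM, the range of 26 of the 32. Log2 differences were positive for 17 and negative for 15, with a median of 0.06 against -0.0003 over all tested genes, of which 7037 were positive. The 3 CB2 KO libraries lay outside the range of the 3 WT libraries for 6 of the 32, against 14.1% of all tested genes and 17.8% of those with a mean of at least 50 CPM. Atp6v1b2, Ctsz and Cd63 were above (3 of 32, against 6.91% of all tested genes), and Asah1, Psap and Grn were below (3 of 32, against 7.2%). The 32 levels summed to 4711 ± 107.6 CPM in WT against 4673 ± 208.3 in CB2 KO (SD over n = 3 libraries, as for every level with ± below).

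How small a difference these libraries bound can be read from the 95% intervals of the fit. For 27 of the 32 genes the whole interval lay within a 2-fold change in either direction, as it did for 6523 of all 14084 tested genes. The other 5 of the 32, whose intervals reach past 2-fold, were Gaa, Ctsh, Ctsl, Cd63 and Tfeb. The median coefficient of variation between libraries was 13.4% in WT and 14% in CB2 KO, against 21.8% and 24.5% over all tested genes. A mean of at least 50 CPM was reached by 26 of the 32 but by 4697 of the 14084, and genes of matched level were not compared. CB2 KO replicate 1 was the highest or lowest of the 6 libraries for 17 of the 32, against 48.1% of all tested genes. Without it, none of the 32 passed in edgeR and the median log2 difference of the set was 0.11. Leaving out 1 library in turn changed the sign or moved the log2 difference by over 1.5 times for 27 of the 32, the others being Asah1, Ctsz, Cd63, Grn and Atp6v1b2. Those others are all among the genes named above for groups that do not overlap, and the same share over all tested genes was not computed.

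**Figure D2:**
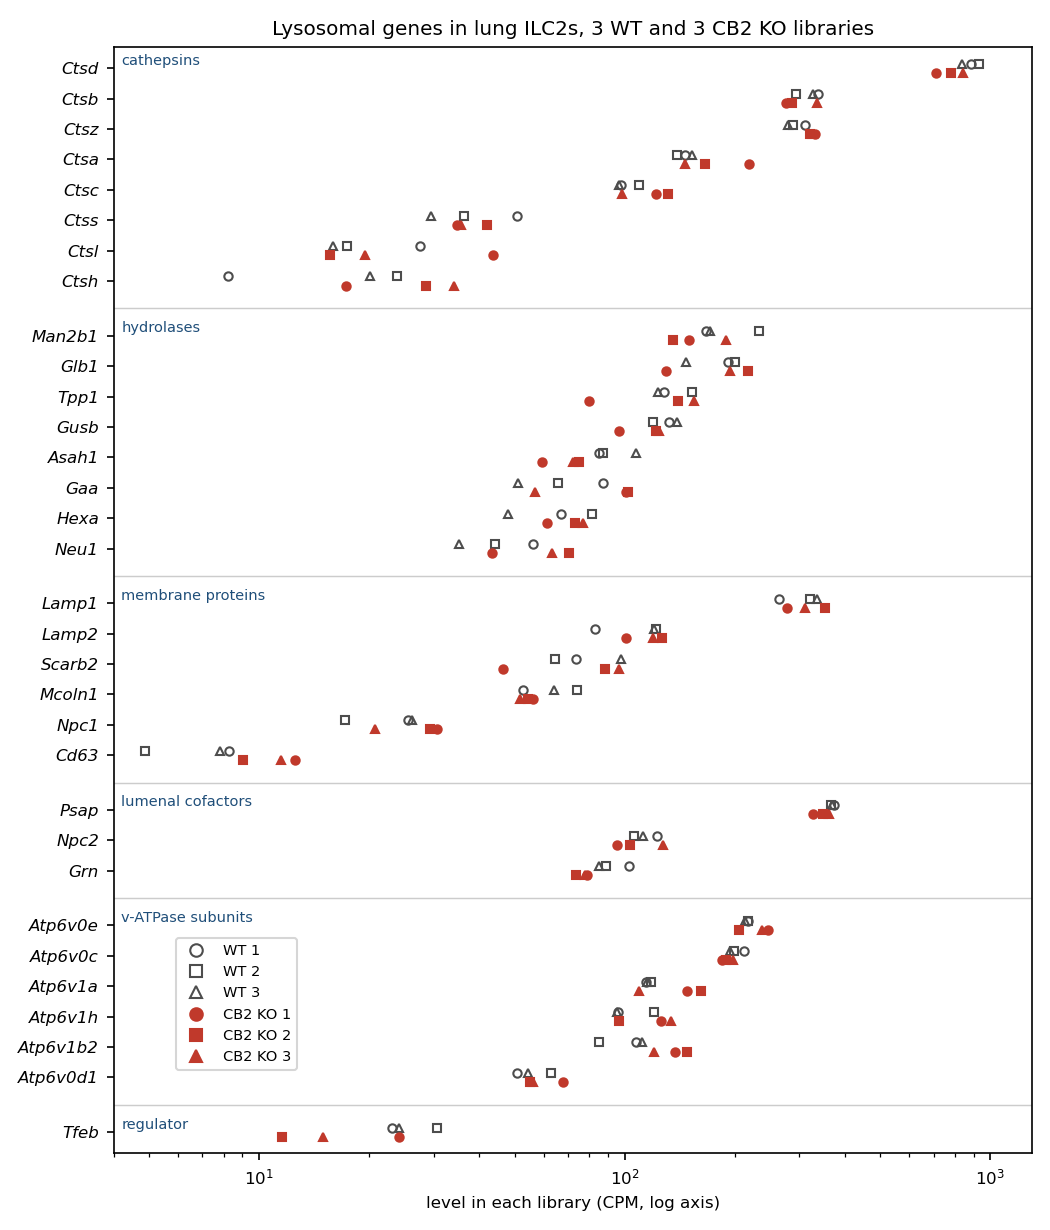
Level of each of the 32 genes in each of the 6 libraries, in CPM on a log axis, grouped by role, with open grey symbols for WT, filled red symbols for CB2 KO and the symbol shape for the replicate number. Ctsd is highest at 709 to 929 CPM, Cd63 is among the lowest at 4.88 to 12.5 CPM, and most red and grey symbols interleave.

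The 8 cathepsins, lysosomal proteases, had a summed level of 1821 ± 55.4 CPM in WT against 1789 ± 46.6 in CB2 KO. Per kb of exon, which allows genes of different length to be compared, Ctsd (chr7:142375911-142388038, - strand), the aspartic protease cathepsin D, had the highest level of all 32 genes, at 376 ± 19.6 CPM per kb in WT. Ctsz, the carboxypeptidase cathepsin Z, was next at 203.5 ± 10.7, and Ctsb, cathepsin B, was at 52.8 ± 3.88. The 3 ranges do not overlap. Ctsh and Ctsl were lowest of the cathepsins, at 3.87 ± 1.81 and 3.12 ± 0.969 CPM per kb, and do not differ beyond their spread.

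Ctsd measured 887, 929 and 837 CPM in WT and 709, 779 and 844 CPM in CB2 KO. CB2 KO replicate 1 was the lowest library, and replicate 3 lay within the WT range. The log2 difference was -0.19 ± 0.08 (SE), a mean level 12.1% below WT, with a 95% interval of -0.37 to -0.01 and an adjusted p of 0.567 in edgeR. Without CB2 KO replicate 1 it was -0.12. Ctsz measured 310.3, 289 and 280.4 CPM in WT and 332, 321 and 327 CPM in CB2 KO. Each CB2 KO library was above each WT library, by a small margin: the log2 difference was 0.15 ± 0.07 (SE), with an interval of -0.01 to 0.32 and an adjusted p of 0.613. As a share of the summed cathepsin level per kb, Ctsd made up 52.5% ± 1.7 in WT and 47.0% ± 2.59 in CB2 KO, while Ctsz made up 28.4% ± 0.765 and 32.3% ± 1.31. In every CB2 KO library the Ctsd share was below, and the Ctsz share above, the range in WT. The shares are parts of one sum, so a lower Ctsd share by itself raises that of Ctsz, and they are not separate results. These shares were not tested.

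Ctsa, the protective protein that holds β-galactosidase and neuraminidase in a complex, measured 147, 139 and 153 CPM in WT and 219, 165 and 146 CPM in CB2 KO. The highest value was that of CB2 KO replicate 1, and the log2 difference of 0.28 ± 0.16 was 0.10 without that library. Ctsc, the dipeptidyl peptidase that activates granule serine proteases, measured 97.7, 109 and 96.5 CPM in WT and 122, 131 and 98.1 CPM in CB2 KO, and the groups overlapped. The other 4 also overlapped. Ctsb ranged over 277 to 338 CPM, Ctss, the cathepsin best known for trimming the invariant chain in antigen-presenting cells, over 29.6 to 50.8 CPM, Ctsl over 15.7 to 43.5 CPM and Ctsh over 8.24 to 34.1 CPM. Ctsl was highest in CB2 KO replicate 1, and its log2 difference of 0.36 ± 0.46 turned to -0.24 without that library. Over the 8 cathepsins, 5 log2 differences were positive and 3 negative, with a median of 0.19, which was 0.045 without CB2 KO replicate 1. Ctsb shares 774 bases with Fdft1 on the opposite strand, a gene of sterol synthesis that measured 67.7 ± 4.37 CPM in WT against 42.0 ± 3.08 in CB2 KO. Whether counting used strand is not known, so reads from that stretch cannot be told apart.

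The hydrolases cut sugars, lipids and peptides, and their summed level was 906.8 ± 81.9 CPM in WT against 862.9 ± 122.5 in CB2 KO. Glb1, the acid β-galactosidase, had the highest level per kb, at 59.8 ± 9.52 CPM per kb in WT, and Neu1, the sialidase, the lowest, at 12.1 ± 2.8. The order between them depends on the length used: by the longest transcript in place of all exons, Man2b1 was the second and not the sixth. Of the 8 log2 differences 3 were positive and 5 negative, with a median of -0.06, and it was 0.15 without CB2 KO replicate 1, which was the lowest of the 6 libraries for 4 of the 8.

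Asah1 (chr8:41340197-41374773, - strand), acid ceramidase, which splits ceramide into sphingosine and fatty acid, measured 85.0, 87.4 and 107 CPM in WT and 59.4, 75.2 and 72.0 CPM in CB2 KO. Every CB2 KO value was below every WT value. The log2 difference was -0.43 ± 0.16 (SE), a mean level 26.1% below WT, with an interval of -0.81 to -0.05. The adjusted p in edgeR was 0.522, and without CB2 KO replicate 1 the difference was -0.33. Man2b1, lysosomal α-mannosidase, measured 167, 234 and 171 CPM in WT and 150.3, 135 and 189.6 CPM in CB2 KO. The groups overlapped, and the log2 difference was -0.28 ± 0.18, or -0.10 without WT replicate 2, the highest library. Neu1 measured 56.0, 44.1 and 35.2 CPM in WT and 43.3, 70.5 and 63.2 CPM in CB2 KO. Its groups overlapped through CB2 KO replicate 1, and the log2 difference was 0.37 ± 0.25, or 0.56 without it. Gusb, β-glucuronidase, measured 132, 119 and 139 CPM in WT and 96.4, 122 and 124 CPM in CB2 KO, with CB2 KO replicate 1 lowest.

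Glb1 measured 192, 200.3 and 147 CPM in WT and 130.1, 218 and 194 CPM in CB2 KO. Its groups had nearly equal means, 179.7 ± 28.6 and 181 ± 45.4 CPM, with the lowest value in CB2 KO replicate 1, and the 95% interval of the log2 difference ran from -0.48 to 0.48. The shorter gene Tmppe lies within Glb1 on the same strand, so the counts of the pair depend on how reads were shared out. Tpp1, the peptidase lost in a form of neuronal ceroid lipofuscinosis, was lowest in the same library, at 80.0 CPM against 123 to 154 CPM in the other 5. Hexa, a subunit of β-hexosaminidase, ranged over 47.9 to 81.2 CPM and Gaa, acid α-glucosidase, over 51.1 to 102 CPM, and both overlapped between groups.

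Among the 6 membrane proteins, Lamp1 had the highest level. This glycoprotein of the limiting membrane measured 264, 320.4 and 336 CPM in WT and 277, 352 and 312 CPM in CB2 KO. Per kb of exon it was at 114.6 ± 14.2 CPM per kb in WT, which is 76.0% ± 0.936 of the summed level of the 6. The share depends on the length used: by the longest transcript, Lamp1 was at 137.5 and Lamp2 at 30.05 CPM per kb in WT. Laptm5, a lysosomal membrane protein of the wider lists, was higher than Lamp1, at 345.1 ± 18.2 CPM per kb of exon in WT. For Lamp1 the groups overlapped, with a log2 difference of 0.04 ± 0.13 and an interval of -0.26 to 0.33. Lamp2, its relative that also serves chaperone-mediated autophagy, measured 83.0, 122 and 120.1 CPM in WT and 101, 126 and 119.5 CPM in CB2 KO. WT replicate 1 was lowest and the groups overlapped. Mcoln1, the calcium channel TRPML1, measured 52.7, 74.2 and 64.2 CPM in WT and 56.2, 54.3 and 51.7 CPM in CB2 KO, with a log2 difference of -0.23 ± 0.18, or -0.10 without WT replicate 2 and -0.36 without WT replicate 1. The CB2 KO libraries lay close together near the lowest WT library.

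Cd63, a tetraspanin of late endosomes and secretory granules, was low, at 8.29, 4.88 and 7.81 CPM in WT and 12.5, 9.06 and 11.5 CPM in CB2 KO. The groups did not overlap, with CB2 KO higher, and the log2 difference was 0.65 ± 0.37 with an interval of -0.21 to 1.51 and an adjusted p of 0.677 in edgeR. These values are uncertain, because the pseudogene Cd63-ps is 98.5% identical over 812 bases of the transcript and was given a similar level, 6.78 ± 1.91 CPM in WT against 11.1 ± 1.69 in CB2 KO. Npc1, the membrane protein that exports cholesterol, measured 25.5, 17.2 and 26.2 CPM in WT and 30.6, 29.2 and 20.8 CPM in CB2 KO, and its groups overlapped. It shares 967 bases with Rmc1 on the opposite strand, which measured 76.6 ± 7.53 CPM in WT against 75.0 ± 10.7 in CB2 KO. Reads from that stretch cannot be told apart, so the level of Npc1 is uncertain. Scarb2, the carrier of glucocerebrosidase, ranged over 46.6 to 97.9 CPM, lowest in CB2 KO replicate 1. The median log2 difference of the 6 membrane proteins was 0.07, with 4 positive and 2 negative, and it was -0.07 without WT replicate 1 and -0.02 without CB2 KO replicate 2.

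The lumenal cofactors had negative log2 differences in 3 of 3, and in 2 of 3 without CB2 KO replicate 1. Psap, the precursor of the saposins that help hydrolases reach lipids, measured 373, 367 and 369 CPM in WT and 326, 349.5 and 362 CPM in CB2 KO. All CB2 KO libraries were below all WT libraries, with replicate 1 lowest, and the log2 difference was -0.10 ± 0.07 with an interval of -0.26 to 0.06. It was -0.06 without CB2 KO replicate 1, and the groups overlapped when scaled by library size alone. Grn, the precursor of granulins, measured 103, 88.7 and 85.1 CPM in WT and 78.9, 73.6 and 77.7 CPM in CB2 KO. Its groups did not overlap either, and the log2 difference was -0.27 ± 0.13, a mean level 16.8% below WT, with an interval of -0.58 to 0.04 and an adjusted p of 0.632 in edgeR. Npc2, which hands cholesterol to NPC1, measured 123, 106 and 112 CPM in WT and 95.4, 104 and 127 CPM in CB2 KO, and the groups overlapped. Its log2 difference of -0.07 ± 0.14 was 0.01 without CB2 KO replicate 1.

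**Figure D3:**
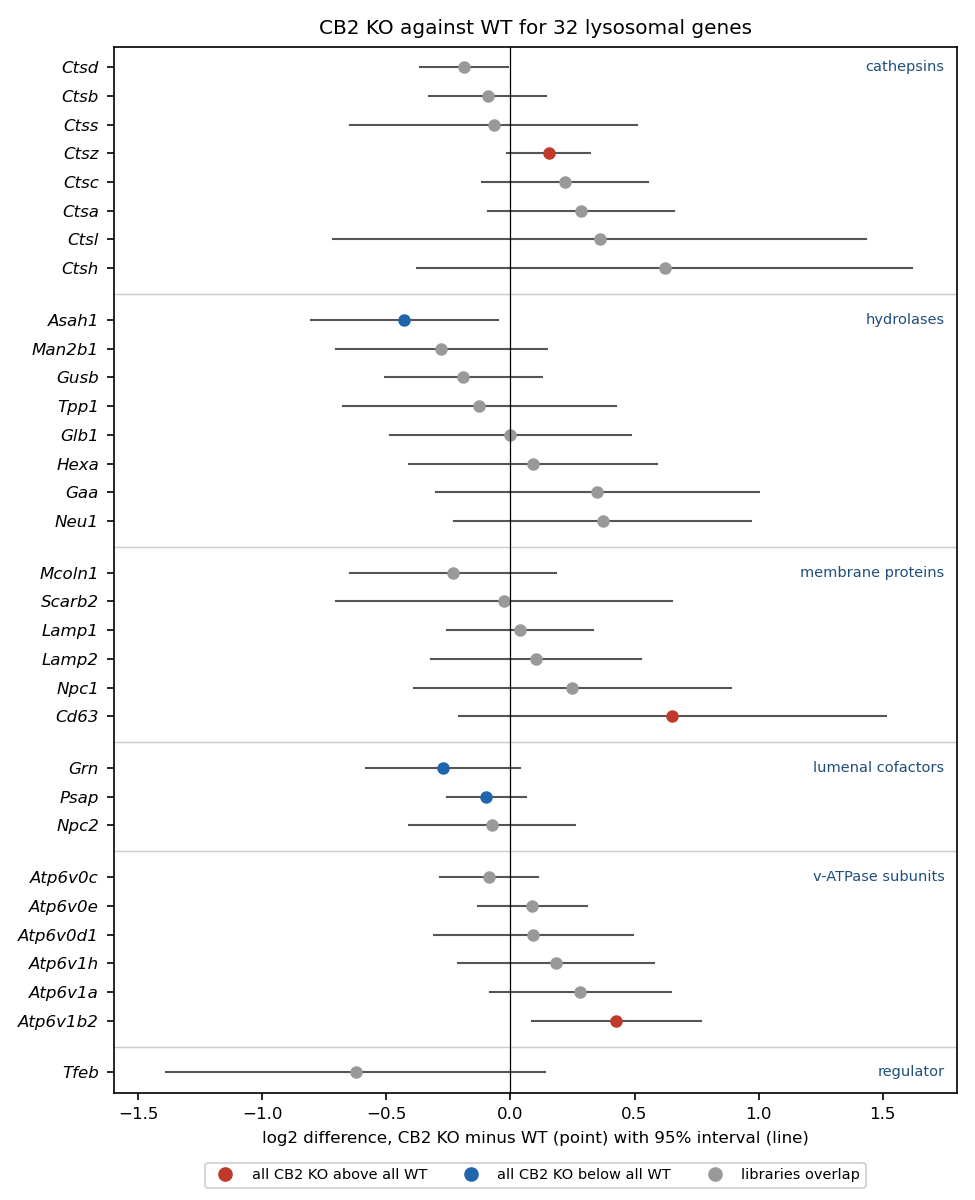
Log2 difference (CB2 KO minus WT) from edgeR's fit for each of the 32 genes, with its 95% interval as a line, grouped by role. Red points are genes with all CB2 KO libraries above all WT libraries, blue points those with all below and grey points those that overlap, and none had an adjusted p under 0.05.

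The v-ATPase subunits had a summed level of 796.7, 803.6 and 783.2 CPM in WT and 909.9, 856.4 and 855.1 CPM in CB2 KO. All CB2 KO sums were above all WT sums, with replicate 1 highest. The sum was not tested. The summed macrophage and monocyte markers were also above the WT range in all 3 CB2 KO libraries (147.5 to 165.9 against 4.05 to 50.6 CPM). Most of that marker sum in CB2 KO was Chil3, at 108 to 143 CPM. Within WT, replicate 3 had the highest marker sum (50.6 CPM) and the lowest v-ATPase sum (783.2 CPM). The part of these cells in the v-ATPase difference was not tested. Log2 differences were positive for 5 of the 6 subunits, with a median of 0.14, which was 0.09 without CB2 KO replicate 1. Subunits V1 A, B and H form part of the outer sector that splits ATP, and c, d and e belong to the membrane sector that carries the protons.

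In the outer sector, Atp6v1b2 (chr8:69088646-69113711, + strand), the B subunit of most tissues, measured 107, 85.0 and 112 CPM in WT and 137, 148 and 120.1 CPM in CB2 KO. All CB2 KO libraries were above all WT libraries. The log2 difference was 0.43 ± 0.14 (SE), a mean level 33.5% above WT, with an interval of 0.09 to 0.77 and an adjusted p of 0.475 in edgeR. It was 0.42 without CB2 KO replicate 1. Atp6v1a, the catalytic subunit, measured 114, 118 and 115 CPM in WT and 148, 161 and 109 CPM in CB2 KO, so 2 of the CB2 KO libraries were above and the other below all WT libraries. Its log2 difference was 0.28 ± 0.15 with an interval of -0.08 to 0.65. Atp6v1h, a regulatory subunit, measured 95.8, 120.5 and 95.4 CPM in WT and 126, 96.7 and 134 CPM in CB2 KO, and the groups overlapped.

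In the membrane sector, Atp6v0c, the proteolipid that forms the rotating ring, measured 212, 199.5 and 194 CPM in WT and 185, 189 and 198 CPM in CB2 KO. Its groups overlapped, and the log2 difference was -0.08 ± 0.08. It and Atp6v0e had the highest levels per kb of the 6 subunits, 59.6 ± 2.76 and 58.2 ± 0.659 CPM per kb in WT, which do not differ beyond their spread. The pseudogene Atp6v0c-ps2 is 99.8% identical to Atp6v0c over 465 bases and was given 72.0 ± 7.37 CPM in WT against 68.3 ± 2.2 in CB2 KO, so the level of Atp6v0c is uncertain. Atp6v0e ranged over 206 to 247 CPM and Atp6v0d1 over 50.7 to 67.7 CPM, and both overlapped between groups.

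Of 21 other subunits and accessory proteins of the pump, 15 were in the table and 14 were tested, with 11 positive and 3 negative differences and none past the threshold in edgeR, DESeq2 or limma-voom. The groups did not overlap for 1 of 14 with CB2 KO higher and 1 with CB2 KO lower, against 14.1% of all tested genes in either direction. At an unadjusted p under 0.05 there was 1 higher and 1 lower of 14, against 8.6% of all tested genes in either direction. The higher one was Tcirg1, the a3 subunit of osteoclast and immune cell lysosomes, at 53.0, 40.4 and 36.7 CPM in WT and 63.3, 60.9 and 56.9 CPM in CB2 KO. Its groups did not overlap, and the log2 difference was 0.47 ± 0.19 with an adjusted p of 0.562. The lower one was Atp6v1g2, known from neurons, which was near 0, with 1.58 to 4.54 CPM in WT against 0 to 1.19 in CB2 KO. Among the alternative a subunits, Atp6v0a2 measured 142 to 190.2 CPM in WT against 180.5 to 211 in CB2 KO, and Atp6v0a1 measured 21.6 to 38.1 and 12.6 to 38.7 CPM. Atp6v0d2, the osteoclast form of the d subunit, had counts in 1 WT and 1 CB2 KO library only.

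**Figure D4:**
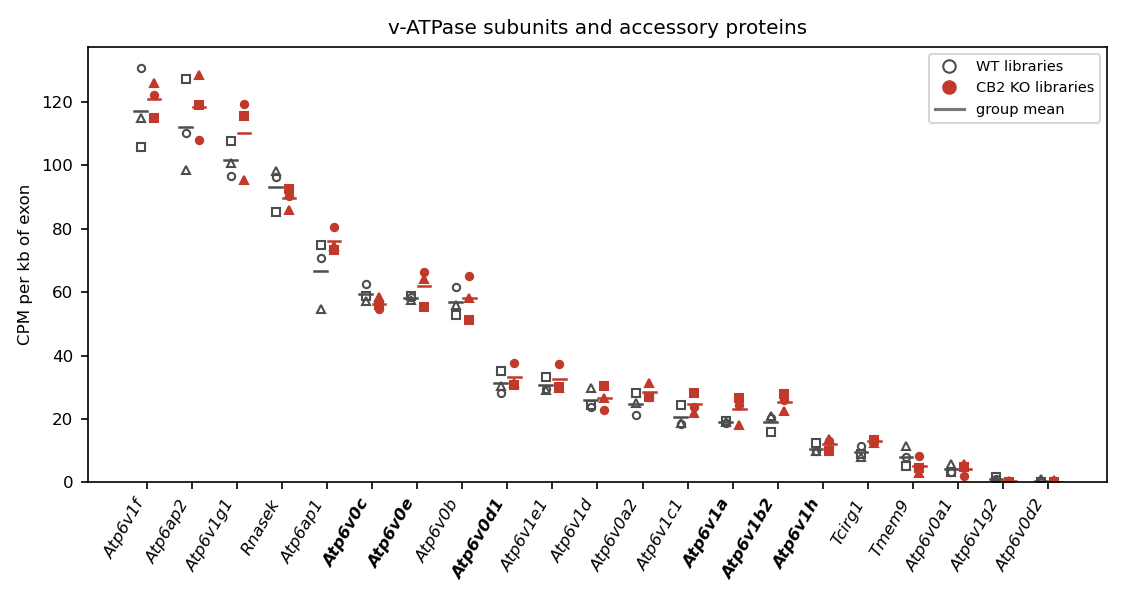
Level per kb of exon of the 21 v-ATPase subunits and accessory proteins in the table, in CPM per kb, with 1 point per library, a bar at each group mean and bold names for the 6 subunits described first. Open grey symbols are WT and filled red symbols CB2 KO, and most subunits overlap between groups.

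Tfeb (chr17:47737030-47792419, + strand), the regulator of lysosomal transcription, measured 23.1, 30.7 and 24.2 CPM in WT and 24.1, 11.6 and 14.9 CPM in CB2 KO. CB2 KO replicates 2 and 3 were below all WT libraries, and replicate 1 was within the WT range. The log2 difference was -0.62 ± 0.32 (SE), with a wide interval of -1.39 to 0.14 and an adjusted p of 0.645 in edgeR. Without CB2 KO replicate 1 it was -0.99, with an adjusted p of 0.521, and without CB2 KO replicate 2 it was -0.39. The 10 genes with an E-box core in their promoter had a median log2 difference of 0.09 (7 positive, 3 negative), and the 16 with a promoter entry and no core had a median of -0.07 (6 positive, 10 negative), Tfeb being one of the 16. The E-box genes ranged from -0.23 for Mcoln1 to 0.36 for Ctsl.

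Around the 32 genes, 147 further lysosomal genes were listed by function, of which 140 were in the table and 136 were tested. None passed in edgeR or limma-voom. The groups did not overlap for 9 of the 136 with CB2 KO higher and 9 with CB2 KO lower, against 6.91% and 7.2% of all tested genes. At an unadjusted p under 0.05 there were 8 higher and 9 lower of 136, where 4.33% and 4.27% of all tested genes were. DESeq2, which called 2.73% of all genes it tested, called 6 of them: Cstb higher, and Gm2a, Laptm5, Ap3m1, Sort1 and Tsc2 lower. Laptm5, a lysosomal membrane protein of blood cells that lowers antigen receptor and cytokine receptor levels, measured 1377, 1307 and 1239 CPM in WT and 904, 989 and 999 CPM in CB2 KO. All CB2 KO libraries were below all WT libraries, at a mean level 26.3% below WT. The log2 difference was -0.44 ± 0.06 (SE) with an adjusted p of 0.0751 in edgeR and 1.01e-09 in DESeq2. Laptm5 lies on chromosome 4, 4.96 Mb from Cnr2, and whether sequence around the targeted locus differs between the groups was not tested.

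Among the other hydrolases and their helpers, 35 were tested, 20 with positive and 15 with negative differences. Gm2a, the activator protein that presents ganglioside to hexosaminidase, measured 1072, 1024 and 1078 CPM in WT and 899, 957 and 899 CPM in CB2 KO. All CB2 KO libraries were below all WT libraries, and the log2 difference was -0.20 ± 0.05 with an adjusted p of 0.344 in edgeR and 0.00537 in DESeq2. Sgsh, the sulfamidase of heparan sulfate breakdown, was low, at 1.63, 5.32 and 3.06 CPM in WT and 12.8, 17.4 and 5.76 CPM in CB2 KO, with a log2 difference of 1.89 ± 0.59 and an adjusted p of 0.452 in edgeR. Fuca1, α-fucosidase, starts 528 bases beyond the end of Cnr2, and measured 191, 179.8 and 170.2 CPM in WT and 123, 180.2 and 159.6 CPM in CB2 KO, with overlapping groups. Ppt1, palmitoyl-protein thioesterase, measured 90.5 ± 12.3 CPM in WT against 121 ± 18.2 in CB2 KO. It shares 129 bases with Cap1 on the opposite strand, which rose from 137 ± 8.01 to 852 ± 41.7 CPM (adjusted p of 1.6e-05 in edgeR), so reads from that stretch cannot be told apart.

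Of 6 cathepsin inhibitors, 3 had positive and 3 negative differences, with 1 of each at an unadjusted p under 0.05 (8.6% of all tested genes in either direction). Cstb, the cytosolic inhibitor cystatin B, measured 113, 95 and 106 CPM in WT and 134, 139 and 129 CPM in CB2 KO, and the groups did not overlap. Its log2 difference was 0.36 ± 0.11, with an adjusted p of 0.452 in edgeR and 0.0356 in DESeq2. Cst7, cystatin F, an inhibitor of cathepsins in cytotoxic granules and lysosomes, measured 111, 87.9 and 118 CPM in WT and 87.0, 60.5 and 71.3 CPM in CB2 KO. The groups did not overlap, with CB2 KO lower, and the log2 difference was -0.53 ± 0.18 with an adjusted p of 0.485 in edgeR. Of the 6 other cathepsins, 5 had positive differences, all without passing in edgeR. Ctsk, best known from osteoclasts, measured 0, 0 and 3.06 CPM in WT and 10.9, 0.991 and 10.1 CPM in CB2 KO, and Ctsf measured 5.76 CPM at most.

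Genes that sort enzymes to lysosomes included 24 tested members, 15 positive and 9 negative. Sort1, the sorting receptor sortilin, measured 11.1, 0.78 and 7.36 CPM in WT and was at 0 in all 3 CB2 KO libraries. Its 385 counts over the WT libraries against 0 made it at least 126-fold lower in CB2 KO, with 3 counts over the group as the limit for 0, which covers counting error only. WT replicate 1 held 62.1% of these counts, and without it the bound was 74.6-fold. Its WT libraries differed widely among themselves, and its adjusted p was 0.485 in edgeR and 2.56e-06 in DESeq2. Ap3m1, a subunit of the AP-3 adaptor that carries membrane proteins to lysosomes and granules, measured 149, 161 and 128 CPM in WT and 112, 109 and 111 CPM in CB2 KO, with no overlap, a log2 difference of -0.41 ± 0.12 and an adjusted p of 0.444 in edgeR. Mcoln2, a relative of Mcoln1, measured 4.66, 2.93 and 5.04 CPM in WT and 0, 0 and 0.814 CPM in CB2 KO, without overlap and with an adjusted p of 0.351 in edgeR.

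Among relatives of Tfeb and the nutrient sensors that act on the lysosomal surface, 20 were tested, 12 positive and 8 negative, with a median log2 difference of 0.18. Tsc2, the brake on mTORC1, measured 65.2, 77.8 and 81.2 CPM in WT and 46.6, 58.1 and 46.6 CPM in CB2 KO. Again each CB2 KO value was below each WT value, and the log2 difference was -0.55 ± 0.17, with an adjusted p of 0.452 in edgeR and 0.0367 in DESeq2. Fnip2, a partner of folliculin in the same pathway, measured 9.27, 4.39 and 12.2 CPM in WT and 14.6, 15.1 and 17.1 CPM in CB2 KO, likewise without overlap, with a log2 difference of 0.87 ± 0.38 and an adjusted p of 0.587 in edgeR. In bulk samples such as these, fewer cells of a type and less RNA per cell cannot be told apart.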

How the data were processed

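The authors deposited an estimated count per gene and library, which Partek made by expectation maximization, per the file headers. They also deposited a normalized signal, equal to the estimated count plus a constant, divided by a factor for each library. CASAVA 1.8.2, STAR 3.5.3 (as listed), Partek and mm10 are named in the submitters' processing notes. Whether the counting used strand is not stated in those notes. Separate mice are not named for the replicates of a group, so the p-values reflect spread between samples that may be technical.

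Estimated counts were rounded and tested with edgeR 4.0.16 in R 4.3.3 on group alone: TMM scaling, filterByExpr (which removed 4394 genes), and the robust quasi-likelihood fit and test with legacy=FALSE. Benjamini-Hochberg adjustment covered 14084 genes, with a threshold of 0.05. Each standard error was obtained from the log2 difference and its F statistic, and 95% intervals use the test's degrees of freedom. DESeq2 1.42.0, limma-voom (limma 3.58.1), other scalings and filters, a replicate block and leaving out each library were alternatives. The workflow was tested on simulated data. Libraries differed from each other by at least 34.0 in chi-square divided by its degrees of freedom, above sampling noise, so none was a second copy. Levels per kb and coordinates use GENCODE M21 (mm10) exons, and for 17887 of 17980 matched genes the deposited start is the same. Near-identical copies were transcripts with at least 90% identity over 200 bases.

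The 32 genes and all lists were chosen with earlier results of these data known, so no test over a list is given. Within each role, full values are given for up to 4 genes with the smallest p, for the highest level per kb and for groups that do not overlap, and other genes are given by range. From each wider list, up to 2 genes with the smallest p are named, while Cnr2, Fuca1 and Ppt1 were named for their position. Atp6v0a1, Atp6v0a2, Atp6v0d2, the ILC2, macrophage and mast cell markers printed, and genes that overlap or copy another were named after their values were seen.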

Additional observations from a re-analysis of the deposited data

How the results depend on the processing

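The number of the 32 genes past the threshold was 0 under all 10 settings that kept every library and under all 6 that left out 1. Over all genes, the 15 calls became 35 with a mean count of at least 100, 409 with DESeq2, and 3 to 8 when 1 library was left out. With a mean count of at least 100, Laptm5 passed in edgeR (adjusted p of 0.0304). Deviations of same-numbered libraries from their group means had small positive correlations (0.0737, 0.031 and 0.0199). WT replicate 3 correlated more with CB2 KO replicate 2 (0.0318) than with its own number. With 3 libraries a group this check cannot exclude a pairing, and the main fit used none. With the replicate block, 3 genes passed, none of them among the 32. Leaving out 1 library moved the median log2 difference of the hydrolases over -0.171 to 0.153, of the cathepsins over 0.045 to 0.237, of the membrane proteins over -0.0676 to 0.174, of the v-ATPase subunits over 0.0852 to 0.24, and of all 32 genes over -0.00859 to 0.109. The 6 genes without overlap became 5 with library size alone, which left out Psap, and 8 to 16 when 1 library was left out, since fewer libraries overlap less. Of 320 values under settings that kept every library, 315 kept their sign. The 5 others were Glb1, at 0.00928 with RLE factors, 0.0113 with upper-quartile factors, 0.0236 with library size alone, 0.00751 with legacy=TRUE and 0.0157 with DESeq2. When 1 library was left out, the sign turned for Glb1 (-0.169 to 0.195), Hexa (-0.074 to 0.272), Tpp1 (-0.293 to 0.119), Ctsl (-0.238 to 0.654), Ctss (-0.216 to 0.177), Lamp1 (-0.0654 to 0.124), Lamp2 (-0.0699 to 0.203), Scarb2 (-0.203 to 0.242), Npc2 (-0.193 to 0.0127) and Atp6v0d1 (-0.011 to 0.187). The cause was not tested. Length by the longest transcript, chosen after seeing the data, left Ctsd (415.6 CPM per kb), Ctsz, Psap and Lamp1 as the first 4, and changed the order of genes below them. With 3 libraries a group, precision is limited, as the wide intervals of low genes such as Cd63, Ctsh and Tfeb show.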
